A study of Mus musculus with 2 samples.

Results

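Forkhead (Fox) and Sox genes encode 2 large families of DNA-binding regulators, and 61 of them were read here in adrenal glands of newborn mice out of 21474 protein-coding genes. The members were chosen by name: every protein-coding gene whose symbol is Fox plus a letter and a number, or Sox plus a number, apart from a pair of such genes not analysed here. That gave 43 Fox genes and 18 Sox genes. The study sequenced total RNA at postnatal day 0 from strain B6NCrl, with 1 library from pup 2 and 1 from pup 1, each holding both adrenals of that animal. The labels number the dam of both pups 1, do not record sex, and name no genetic change or treatment, so both libraries belong to 1 untreated group. Levels are TPM, a transcript abundance scaled for length and library size. With 1 library per pup, no p-value is given for a difference between them, and intervals cover counting error only.

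Fox proteins bind DNA through a winged-helix forkhead domain, and letters in their names mark subfamilies with related domains. FoxA proteins open closed chromatin in endoderm organs, FoxO proteins are held out of the nucleus by insulin signalling, FoxM1 drives mitotic genes, and FoxP proteins are repressors that act as dimers. Sox proteins bend DNA through an HMG box related to that of SRY and usually act with partner proteins. SoxC members mark developing neurons and many embryonic progenitors, SoxF members endothelium, SoxE members glia, cartilage and Sertoli cells, and SoxB members neural progenitors. The adrenal gland joins a steroid-making cortex with catecholamine-making chromaffin cells, and also holds vessels, nerve cells, glia and a mesenchymal capsule.

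Depth came to 40799478 estimated counts for pup 2 and 41504343 for pup 1. All 8 cortex markers were present, between 17.3 and 4997 TPM, and they summed to 17191 TPM in pup 2 against 6453 TPM in pup 1. Markers of other tissues differed between the libraries as well. The 8 liver markers summed to 2266 TPM in pup 2 against 2940 TPM in pup 1, and the 8 stomach and oesophagus markers to 9.00 TPM in pup 2 against 150 TPM in pup 1. The 8 nephron markers summed to 16.5 TPM in pup 2 against 2.29 TPM in pup 1, and the 8 skeletal muscle markers to 294 TPM in pup 2 against 73.6 TPM in pup 1. The 6 erythroid markers summed to 10560 TPM in pup 2 against 14026 TPM in pup 1. In pieces of tissue, fewer cells of a type and less RNA per cell cannot be told apart.

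Of the 61 genes, 28 reached 1 TPM in both pups, which is 17 of 43 Fox genes and 11 of 18 Sox genes. The same level was reached by 60.5% of all protein-coding genes, so the share among Fox genes, 39.5%, lay below this background and that among Sox genes, 61.1%, lay near it. A further 2 genes passed 1 TPM in a single pup. The remaining 31 stayed under 1 TPM in both pups, and 7 of them had no counts in either library. Among the 28, the median was 5.13 TPM in pup 2 and 4.44 in pup 1. All protein-coding genes that passed the same level had a median of 15.0 TPM in pup 2 and 11.3 in pup 1. Summed over members, Fox genes held 162 TPM in pup 2 against 141 TPM in pup 1, and Sox genes held 100.1 TPM in pup 2 against 85.2 TPM in pup 1.

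**Figure D1:**
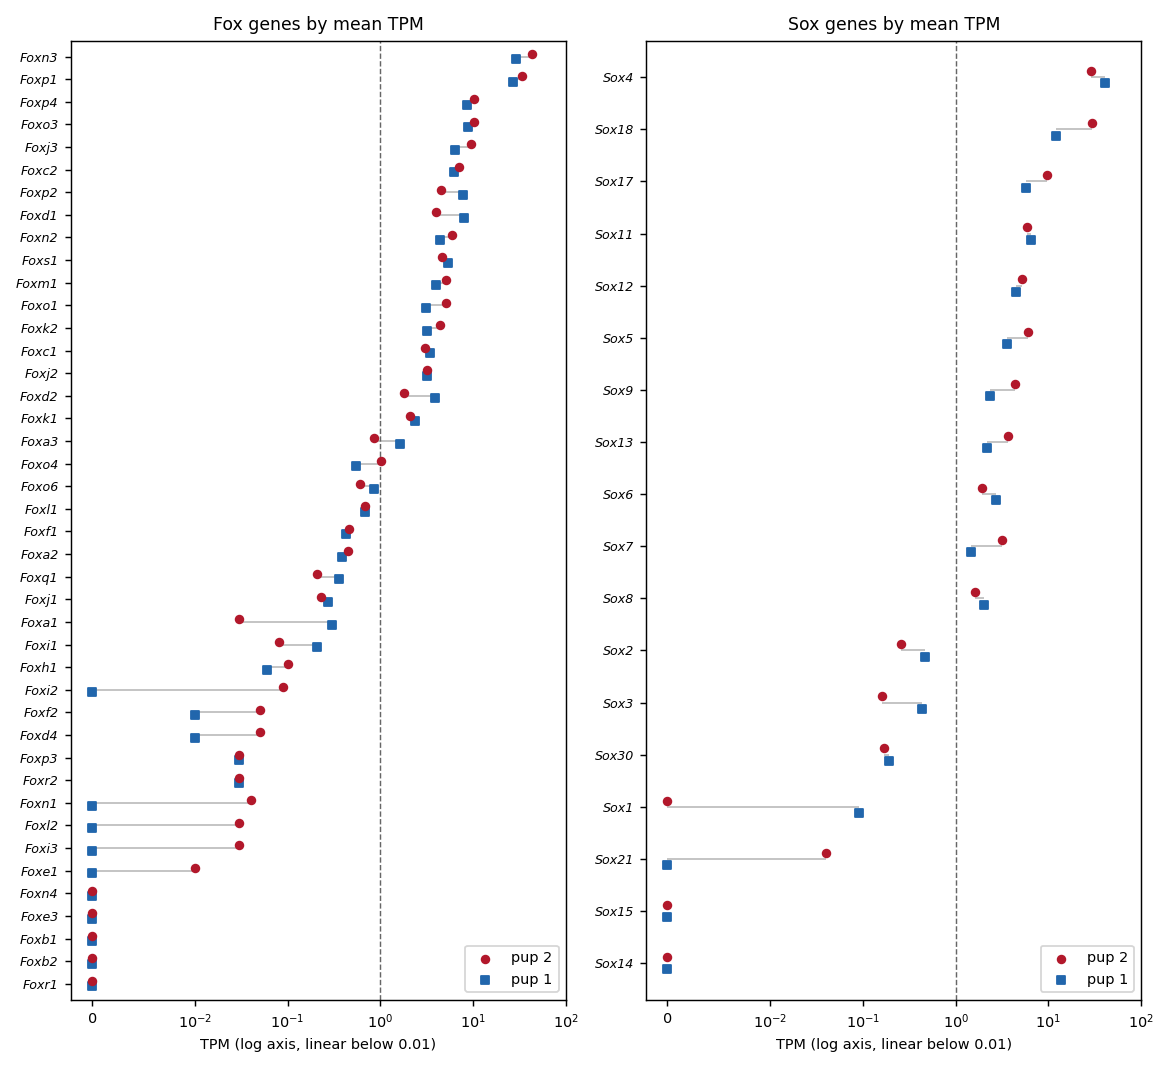
TPM of Fox genes (left) and Sox genes (right) in pup 2 (red circles) and pup 1 (blue squares), on a log axis that is linear below 0.01, with the dashed line at 1 TPM. Genes are ordered by mean TPM, so Foxn3, at 43.0 TPM in pup 2 against 29.0 TPM in pup 1, tops the Fox genes and Sox4, at 28.9 TPM in pup 2 against 40.9 TPM in pup 1, tops the Sox genes, while 7 genes lie at 0 in both pups.

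Only 4 members averaged 10 TPM or more: Foxn3, Sox4, Foxp1 and Sox18. Foxn3, a repressor with a role in the cell cycle checkpoint, had 43.0 TPM (2122 counts) in pup 2 against 29.0 TPM (1902 counts) in pup 1, or 36.0 ± 9.86 TPM (SD, n = 2). Foxp1, a repressor with roles in heart, lung and B cells, had 33.4 TPM (2449 counts) in pup 2 against 27.2 TPM (2873 counts) in pup 1, or 30.3 ± 4.39 TPM (SD, n = 2). Foxn3 was above Foxp1 in each pup, but their means lie closer together than the SD of Foxn3. Together they carried 47.1% of all Fox TPM in pup 2 and 39.9% in pup 1. In rank of mean TPM among protein-coding genes, Foxn3 stood at 3271, Sox4 at 3358, Foxp1 at 3782 and Sox18 at 4942.

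The top place of Foxn3 rests on a short annotated transcript. Its 9 transcripts include ENSMUST00000176928.1, which is 566 bases long and took 46.1% of the gene's TPM in pup 2 and 39.3% in pup 1. Counting only transcripts of at least 1000 bases, a choice made after seeing the data, Foxn3 had 20.2 TPM in pup 2 against 15.1 TPM in pup 1, and Foxp1 had 20.3 TPM in pup 2 against 19.3 TPM in pup 1. On that basis Sox4 and Sox18, whose TPM lies entirely in longer transcripts, came first and second by mean TPM, and Foxp1 stood above Foxn3. Foxp1 is annotated with 32 transcripts, of which ENSMUST00000177229.3 led with 22.6% of its TPM in pup 2 and 35.3% in pup 1, and non-coding transcripts took 34.6% of its TPM in pup 2 and 28.9% in pup 1.

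By subfamily, FoxP and FoxN led the Fox genes. The 4 FoxP genes summed to 48.3 TPM in pup 2 against 43.8 TPM in pup 1, and the 4 FoxN genes to 48.9 TPM in pup 2 against 33.4 TPM in pup 1. FoxP thus held 29.8% of Fox TPM in pup 2 and 31.1% in pup 1 (30.4% ± 0.942, SD, n = 2), while FoxN held 30.1% in pup 2 and 23.7% in pup 1 (26.9% ± 4.51, SD, n = 2). FoxO followed with 17.0 TPM in pup 2 against 13.2 TPM in pup 1, then FoxJ with 12.8 TPM in pup 2 against 9.88 TPM in pup 1. FoxC came next with 10.1 TPM in pup 2 against 9.70 TPM in pup 1. Unlike these TPM sums, that of the 3 FoxD genes was lower in pup 2, at 5.79 TPM in pup 2 against 11.8 TPM in pup 1. This is 3.57% of Fox TPM in pup 2 and 8.39% in pup 1. In TPM the median gene was itself higher in pup 2, at a log2 ratio of 0.39. Relative to the median gene, both FoxC genes and the 3 FoxP genes averaging at least 10 counts were also lower in pup 2.

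**Figure D2:**
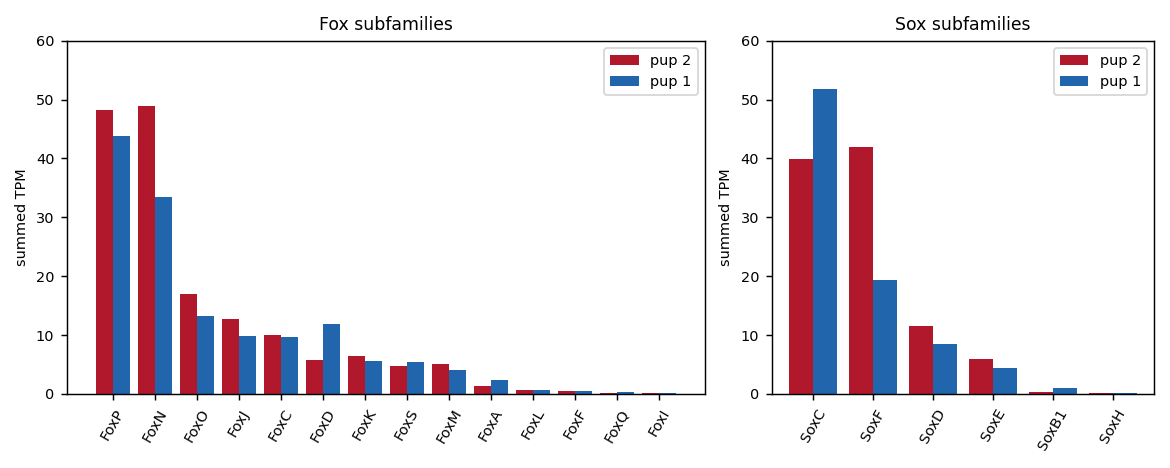
Summed TPM of each Fox subfamily (left) and Sox subfamily (right) in pup 2 (red bars) and pup 1 (blue bars), leaving out those with a mean sum under 0.1 TPM. FoxP and FoxN stand above the other Fox subfamilies in both pups, and SoxF, at 42.0 TPM in pup 2 against 19.4 TPM in pup 1, changes order with SoxC, at 39.9 TPM in pup 2 against 51.9 TPM in pup 1.

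Within FoxP, the dimer-forming repressors, Foxp4 of lung and gut epithelium had 10.3 TPM in pup 2 against 8.67 TPM in pup 1. Foxp2, best known from brain and lung, had 4.52 TPM (720 counts) in pup 2 against 7.88 TPM (1638 counts) in pup 1, or 6.2 ± 2.38 TPM (SD, n = 2). Relative to the median gene, a comparison given below, Foxp4 and Foxp2 were both lower in pup 2, Foxp2 by more. Foxp3, the lineage factor of regulatory T cells, stayed at 0.03 TPM in each pup, on 4 counts in pup 2 and 5 in pup 1. Markers of regulatory T cells were also sparse, since the 6 of them summed to 2.82 TPM in pup 2 against 2.00 TPM in pup 1. Foxn2, a broadly expressed FoxN gene, had 5.86 TPM in pup 2 against 4.40 TPM in pup 1, whereas Foxn1 of thymus epithelium had 4 counts in pup 2 and 0 in pup 1, and Foxn4 of retinal progenitors had none.

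FoxO genes, which insulin signalling restrains, were led by Foxo3 at 10.3 TPM (1617 counts) in pup 2 against 8.72 TPM (1800 counts) in pup 1, or 9.48 ± 1.08 TPM (SD, n = 2). Foxo1 had 5.13 TPM in pup 2 against 3.12 TPM in pup 1. Foxo4 passed 1 TPM in pup 2 alone, at 1.02 TPM against 0.55 TPM in pup 1, and Foxo6, known from brain, had 0.61 TPM in pup 2 against 0.85 TPM in pup 1. A list of 12 FoxO target genes summed to 566 TPM in pup 2 against 446 TPM in pup 1, with 10 above 1 TPM in both pups. Txnip, an inhibitor of thioredoxin, took most of that sum at 366 TPM in pup 2 against 283 TPM in pup 1.

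Broadly expressed and cycle-linked Fox genes were present at a few TPM. Foxj3 had 9.44 TPM (1216 counts) in pup 2 against 6.41 TPM (1105 counts) in pup 1, or 7.93 ± 2.14 TPM (SD, n = 2), and Foxj2 had 3.15 TPM in pup 2 against 3.2 TPM in pup 1. Foxk2, a regulator of metabolism and autophagy genes, had 4.41 TPM (712 counts) in pup 2 against 3.18 TPM (616 counts) in pup 1, or 3.80 ± 0.870 TPM (SD, n = 2), and its relative Foxk1 had 2.11 TPM in pup 2 against 2.35 TPM in pup 1. Foxm1, the driver of mitotic genes, had 5.14 TPM (602 counts) in pup 2 against 4.01 TPM (660 counts) in pup 1, or 4.58 ± 0.799 TPM (SD, n = 2). All 10 proliferation genes and FOXM1 targets on the list were above 1 TPM, and they summed to 402 TPM in pup 2 against 352 TPM in pup 1. The highest of them, Cdk1, the kinase that starts mitosis, had 142 TPM in pup 2 against 152 TPM in pup 1. Foxj1, the master regulator of motile cilia, had only 0.23 TPM in pup 2 against 0.27 TPM in pup 1, and 6 motile cilia genes summed to 3.04 TPM in pup 2 against 3.2 TPM in pup 1.

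Mesenchymal Fox genes formed a middle tier. Foxc2, a regulator of lymphatic valves and mesenchyme, had 7.03 TPM (605 counts) in pup 2 against 6.28 TPM (665 counts) in pup 1, or 6.66 ± 0.530 TPM (SD, n = 2), and Foxc1 had 3.02 TPM in pup 2 against 3.42 TPM in pup 1. Foxs1, known from pericytes and the peripheral nervous system, had 4.68 TPM (186 counts) in pup 2 against 5.36 TPM (262 counts) in pup 1, or 5.02 ± 0.481 TPM (SD, n = 2). Foxd1, a marker of stroma precursors in the kidney, had 3.94 TPM (305 counts) in pup 2 against 7.89 TPM (752 counts) in pup 1, or 5.92 ± 2.79 TPM (SD, n = 2). Foxd2, a factor of kidney mesenchyme, had 1.80 TPM (147 counts) in pup 2 against 3.92 TPM (394 counts) in pup 1, or 2.86 ± 1.5 TPM (SD, n = 2). Visceral mesenchyme genes were below these: Foxf1 had 0.46 TPM in pup 2 against 0.43 TPM in pup 1, Foxl1 had 0.69 TPM in pup 2 against 0.68 TPM in pup 1, and Foxf2 had 0.05 TPM in pup 2 against 0.01 TPM in pup 1.

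Some mesenchymal Fox genes lie beside other Fox genes on the chromosome, and neighbours differed widely in level. On chromosome 8 of the mm10 build, Foxf1 (chr8:121084386-121088144), Foxc2 (chr8:121116171-121118895) and Foxl1 (chr8:121127940-121130644) follow each other with gaps of 28.0 and 9.05 kb, and only the middle gene passed 1 TPM. Foxq1, Foxf2 and Foxc1 on chromosome 13 are separated by gaps of 64.8 and 175 kb, and of these Foxc1 alone passed 1 TPM. Foxd2 on chromosome 4 lies 16.3 kb from Foxe3, a lens gene with no counts in either pup.

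**Figure D3:**
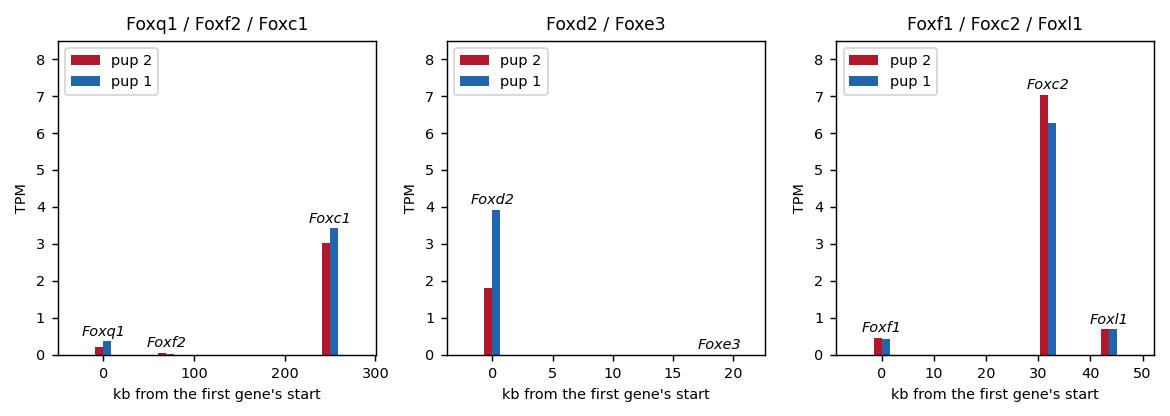
TPM in pup 2 (red bars) and pup 1 (blue bars) of Fox genes with gaps under 200 kb from one to the next. Genes are plotted by distance in kb from the start of the first gene, on chromosome 13 (left), 4 (middle) and 8 (right). One gene in each cluster stands above 1 TPM: Foxc1 at 3.02 TPM in pup 2 against 3.42 TPM in pup 1, Foxd2 at 1.80 TPM in pup 2 against 3.92 TPM in pup 1, and Foxc2 at 7.03 TPM in pup 2 against 6.28 TPM in pup 1.

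The remaining Fox genes were low or had no counts. Foxa3 of liver and gut passed 1 TPM in pup 1 alone, with 0.85 TPM in pup 2 against 1.63 TPM in pup 1. Foxa2 had 0.45 TPM in pup 2 against 0.39 TPM in pup 1, and Foxa1 had 3 counts in pup 2 and 38 in pup 1. Foxq1 of stomach and hair had 0.21 TPM in pup 2 against 0.36 TPM in pup 1, and Foxi1 of acid-secreting cells had 0.08 TPM in pup 2 against 0.21 TPM in pup 1. The thyroid gene Foxe1, the hair and ear gene Foxi3 and the ovarian gene Foxl2 each had 1 count in pup 2 and 0 in pup 1. Foxi2 had 7 counts in pup 2 and 0 in pup 1, Foxd4 had 4 in pup 2 and 1 in pup 1, Foxh1 had 4 in pup 2 and 3 in pup 1, and Foxr2 had 3 in each. Foxb1, Foxb2, Foxe3, Foxn4 and Foxr1 had no counts in either, which at this depth allows up to 0.0735 CPM in pup 2 and 0.0723 CPM in pup 1 (3 counts). Of 6 gonad markers, only Inha, an inhibin subunit also made by the adrenal cortex, passed 1 TPM, at 146 TPM in pup 2 against 44.9 TPM in pup 1.

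Among Sox genes, SoxC and SoxF together held most of the TPM. Sox4, a factor of developing neurons and many embryonic progenitors, had 28.9 TPM (4442 counts) in pup 2 against 40.9 TPM (7755 counts) in pup 1, or 34.9 ± 8.53 TPM (SD, n = 2). Sox11, a factor of newly formed neurons and sympathetic ganglia, had 5.81 TPM in pup 2 against 6.47 TPM in pup 1, and Sox12 had 5.2 TPM in pup 2 against 4.48 TPM in pup 1. SoxC summed to 39.9 TPM in pup 2 against 51.9 TPM in pup 1, which is 39.8% of Sox TPM in pup 2 and 60.9% in pup 1 (50.4% ± 14.9, SD, n = 2). Sox4 was the highest Sox gene in pup 1, while in pup 2 the deposited interval bounds of Sox4 (27.4 to 29.3 TPM) and Sox18 (27.3 to 30.2 TPM) overlapped.

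The sequences upstream of the SoxC genes are shown because all 3 members exceeded 1 TPM and were lower in pup 2 relative to the median gene, and those of Foxd1 and Foxd2 because they were furthest apart between the pups among genes averaging at least 100 counts. Each is the 250 bases before the RefSeq start on build GRCm38.p6, read 5′ to 3′ on the gene's strand, and capitals mark CCAAT or its reverse complement ATTGG. Sox4 (chr13:28953700-28953949, minus strand) holds 4 matches, Sox11 (chr12:27342719-27342968, minus strand) 1, Sox12 (chr2:152398047-152398296, minus strand) 1, Foxd1 (chr13:98353995-98354244, plus strand) 1 and Foxd2 (chr4:114908899-114909148, minus strand) 0. In bases upstream of the GENCODE start, the RefSeq start lies at 144 for Sox11 and 25 for Foxd2. It lies at -14 for Sox4, -17 for Sox12 and -3 for Foxd1, so these windows reach into the GENCODE gene. The last match of Sox4 falls in that stretch.
Sox4: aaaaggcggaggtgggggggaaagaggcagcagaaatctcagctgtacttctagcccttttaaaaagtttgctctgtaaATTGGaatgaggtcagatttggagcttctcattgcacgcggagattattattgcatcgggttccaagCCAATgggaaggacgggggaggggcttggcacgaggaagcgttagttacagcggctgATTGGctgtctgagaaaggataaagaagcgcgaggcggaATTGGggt
Sox11: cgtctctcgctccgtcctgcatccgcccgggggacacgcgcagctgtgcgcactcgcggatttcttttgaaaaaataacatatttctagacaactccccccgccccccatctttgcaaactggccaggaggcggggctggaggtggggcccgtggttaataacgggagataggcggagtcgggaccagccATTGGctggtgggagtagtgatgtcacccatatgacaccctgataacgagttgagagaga
Sox12: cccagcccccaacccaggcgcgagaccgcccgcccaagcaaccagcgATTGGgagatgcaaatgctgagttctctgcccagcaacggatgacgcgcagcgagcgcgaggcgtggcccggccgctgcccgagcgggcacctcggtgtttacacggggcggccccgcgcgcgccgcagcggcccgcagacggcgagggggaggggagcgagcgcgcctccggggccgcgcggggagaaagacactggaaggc
Foxd1: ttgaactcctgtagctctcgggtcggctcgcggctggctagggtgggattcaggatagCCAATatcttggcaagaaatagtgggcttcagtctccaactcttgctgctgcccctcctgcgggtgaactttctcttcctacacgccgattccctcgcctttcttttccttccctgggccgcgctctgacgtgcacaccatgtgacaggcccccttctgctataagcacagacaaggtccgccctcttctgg
Foxd2: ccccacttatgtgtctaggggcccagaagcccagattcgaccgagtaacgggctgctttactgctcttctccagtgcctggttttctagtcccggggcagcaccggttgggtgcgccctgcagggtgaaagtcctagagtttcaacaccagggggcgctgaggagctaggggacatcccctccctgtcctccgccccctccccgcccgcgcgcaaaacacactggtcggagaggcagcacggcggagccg

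Such windows were found for 40 of the 61 genes, and they were GC-rich, with a median of 63.0% GC against 52.0% over 27025 windows of all genes. On either strand, GGGCGG occurred in 67.5% of the members' windows against 33.0% of all windows, and CCAAT in 50% against 34.5%. TATAAA occurred in 5% against 13.0%, TGTTTAC, a forkhead-type motif, in 5% against 3.06%, and AACAAT, a Sox-type motif, in 0 of 40 against 9.62%. Matches to different motifs did not overlap in these 40 windows. The 18 windows of genes at 1 TPM or more in both pups had a median of 65.0% GC and held CCAAT in 38.9% of cases, and the other 22 had a median of 62.4% GC and held it in 59.1%. Regarding gene structure, 18 of the 61 genes, or 29.5%, have a single exon in every coding transcript, against 5.90% of 21428 protein-coding genes. Of these 18, 7 were among the 28 expressed in both pups, namely Foxc1, Foxc2, Foxd1, Foxd2, Foxs1, Sox4 and Sox11.

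SoxF genes, the Sox factors of endothelium, were all higher in pup 2. Sox18, a factor of lymphatic and vascular endothelium, had 29.2 TPM (1456 counts) in pup 2 against 12.2 TPM (747 counts) in pup 1, or 20.7 ± 12.0 TPM (SD, n = 2). Sox17, a factor of definitive endoderm and arterial endothelium, had 9.63 TPM in pup 2 against 5.73 TPM in pup 1, and Sox7 had 3.13 TPM (328 counts) in pup 2 against 1.46 TPM (189 counts) in pup 1, or 2.30 ± 1.18 TPM (SD, n = 2). SoxF summed to 42.0 TPM in pup 2 against 19.4 TPM in pup 1, which is 41.9% of Sox TPM in pup 2 and 22.7% in pup 1. The 10 endothelial markers, all above 1 TPM, summed to 446 TPM in pup 2 against 268 TPM in pup 1. The highest was Egfl7, a secreted endothelial protein, at 118 TPM in pup 2 against 94.0 TPM in pup 1. Relative to the median gene, however, Egfl7 was slightly lower in pup 2. Plvap, a protein of endothelial diaphragms, followed at 97.9 TPM in pup 2 against 42.6 TPM in pup 1.

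SoxD and SoxE genes were lower. Sox5, a partner of Sox9 in cartilage, had 6.08 TPM (372 counts) in pup 2 against 3.57 TPM (313 counts) in pup 1, or 4.83 ± 1.77 TPM (SD, n = 2). Non-coding transcripts took 62.8% of its TPM in pup 2 and 57.5% in pup 1, so its coding transcripts had 2.25 TPM in pup 2 against 1.52 TPM in pup 1. Sox13, known from arteries and T cells, had 3.64 TPM in pup 2 against 2.17 TPM in pup 1, and Sox6, a partner of Sox9 that also silences embryonic globin, had 1.91 TPM in pup 2 against 2.69 TPM in pup 1. Sox9, the factor of cartilage and Sertoli cells, had 4.41 TPM (584 counts) in pup 2 against 2.32 TPM (377 counts) in pup 1, or 3.37 ± 1.48 TPM (SD, n = 2). The 6 cartilage markers summed to 4.45 TPM in pup 2 against 1.87 TPM in pup 1 and none reached 1 TPM in both pups. Col2a1, the main collagen of cartilage, had 1.91 TPM in pup 2 against 0.27 TPM in pup 1, and Matn1, a cartilage matrix protein, was at 0 in both. Sox8, a SoxE gene of testis and glia, had 1.60 TPM in pup 2 against 2.03 TPM in pup 1.

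SoxB1 genes, the factors of neural progenitors, stayed under 1 TPM. Sox2 had 0.26 TPM in pup 2 against 0.47 TPM in pup 1, Sox3 had 0.16 TPM in pup 2 against 0.43 TPM in pup 1, and Sox1 had 0 counts in pup 2 and 18 in pup 1. Of SoxB2, Sox21 had 5 counts in pup 2 and 0 in pup 1, and Sox14, a brain gene, had none. Sox30 of male germ cells had 0.17 TPM in pup 2 against 0.19 TPM in pup 1, and Sox15 of muscle precursors and placenta had no counts in either.

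More than 1 annotated transcript was present for 16 of the 28 expressed genes. The leading transcript was the same in both pups for 14 of these 16 and differed for Foxp4 and Sox5. Coding transcripts alone kept all 16 at 1 TPM or more in both pups. Foxo3 was led by 1 transcript with 65.0% of its TPM in pup 2 and 70.5% in pup 1.

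The libraries were next compared gene by gene, as the log2 ratio of pup 2 over pup 1 in counts scaled by the trimmed mean of M values (TMM). For 41 members with a mean count of at least 10, the median ratio was -0.45, against 0.00 over all 18670 genes with that many counts. By sign alone, 11 members were higher in pup 2 and 30 in pup 1, while all genes split into 50.1% higher in pup 2 and 49.9% higher in pup 1. The 95% interval of the ratio lay above 0 for 5 members, or 12.2%, against 34.8% of all genes, and below 0 for 24, or 58.5%, against 34.8% of all genes. No member was over 2-fold higher in pup 2, against 6.03% of all genes, and 9 members, or 22%, were over 2-fold higher in pup 1, against 9.77% of all genes. Of 28 members averaging at least 100 counts, 3 were over 2-fold higher in pup 1. The share of all genes at that higher minimum was not computed. The median over all genes was 0.39 in TPM and 2.57 in counts scaled by spike-in RNA, so signs are given relative to the median gene. Without that centring, the members split into 21 higher in pup 2 and 20 in pup 1 in TPM, and into 40 higher in pup 2 and 1 in pup 1 under spike-in scaling. The calls over 2-fold turned with it. In TPM, 2 members, Sox18 and Sox7, were over 2-fold higher in pup 2, against 13.6% of all genes, and 5 were so in pup 1, against 5.26%. Under spike-in scaling, 38 members were over 2-fold higher in pup 2, against 96.3% of all genes, and 0 in pup 1, against 0.445%.

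**Figure D4:**
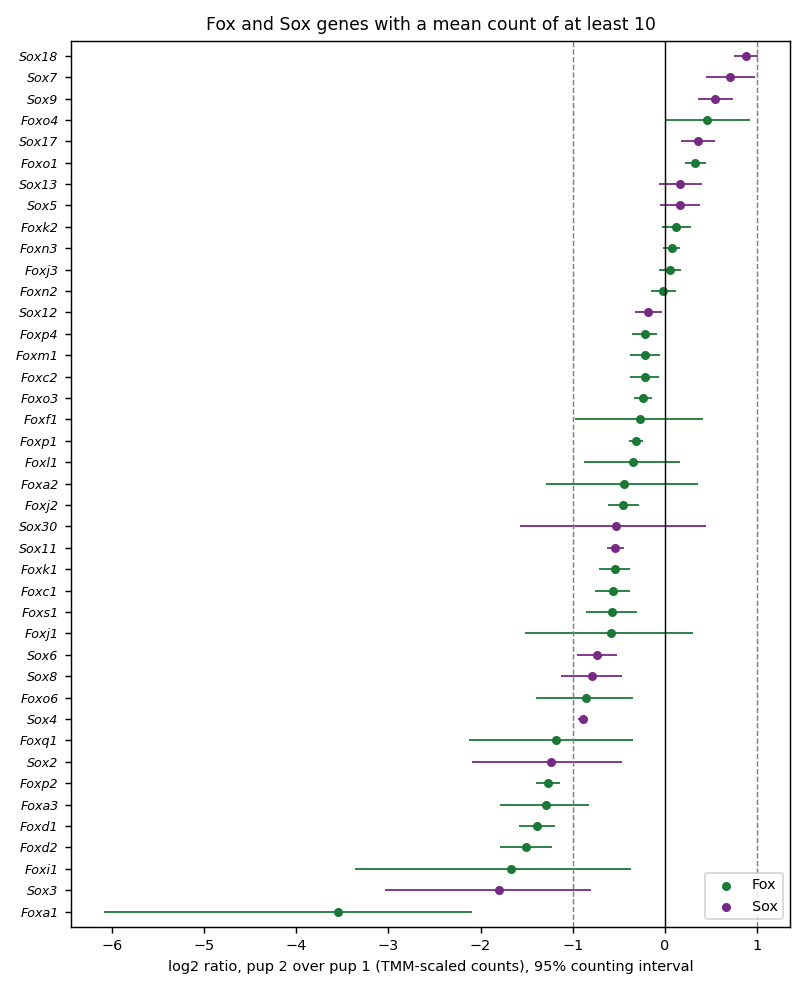
Log2 ratio of pup 2 over pup 1 in TMM-scaled counts for the 41 Fox (green) and Sox (purple) genes averaging at least 10 counts, with bars for the 95% counting interval and dashed lines at 2-fold. Sox18 at 0.88 is the highest, Foxa1 at -3.54 is the lowest, and 30 of 41 points lie below 0.

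At a mean count of at least 100, the members with the largest ratios were Sox18, Sox7 and Sox9 in pup 2, and Foxd2, Foxd1 and Foxp2 in pup 1. Sox18 was 1.84-fold higher in pup 2, with a log2 ratio of 0.88 and an interval of 0.75 to 1.01. Sox7 followed with 0.71 (0.45 to 0.98) and Sox9 with 0.55 (0.36 to 0.74). Foxd2 was 2.84-fold higher in pup 1, with a log2 ratio of -1.50 and an interval of -1.79 to -1.23. Foxd1 followed with -1.39 (-1.58 to -1.19) and Foxp2 with -1.27 (-1.40 to -1.14). Among less deeply counted genes, Foxa1 had a ratio of -3.54 on 3 counts in pup 2 and 38 in pup 1, with an interval of -6.09 to -2.09. The other 5 members over 2-fold higher in pup 1 were Foxa3 at -1.29, Foxi1 at -1.67, Foxq1 at -1.18, Sox2 at -1.24 and Sox3 at -1.80.

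Of 13 subfamilies with at least 2 ratios, 6 had all members higher in pup 1 relative to the median gene, 1 had all higher in pup 2, and 6 were mixed, where 30 of the 41 members were higher in pup 1. All 3 SoxF genes were higher in pup 2, between 0.36 and 0.88, and all 3 SoxC genes were higher in pup 1, with Sox4 at -0.89 (-0.94 to -0.84), Sox11 at -0.54 (-0.63 to -0.44) and Sox12 at -0.18 (-0.33 to -0.03). Both FoxC genes and all 3 FoxA genes were likewise higher in pup 1. So were the 2 FoxD, 3 FoxP and 2 SoxB1 genes that passed the count minimum. For Foxa2, at -0.45 on 24 counts in pup 2 and 31 in pup 1, the interval spanned 0 (-1.29 to 0.36). FoxO was mixed, with Foxo1 at 0.33 and Foxo4 at 0.45 on one side and Foxo3 at -0.24 and Foxo6 at -0.86 on the other. SoxD was mixed too, with Sox5 and Sox13 at 0.16 each and Sox6 at -0.73. The remaining mixed subfamilies were FoxN, FoxJ, FoxK and SoxE, in which Sox9 at 0.55 stood opposite Sox8 at -0.79. Under spike-in scaling, every one of these genes except Foxa1 was higher in pup 2, with no centring on the median gene.

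Markers of the tissues in which these genes are usually found were read in the same scaling, where the 8 cortex markers had a median log2 ratio of 1.11 and all 8 were higher in pup 2. The 10 endothelial markers, beside SoxF, had a median of 0.61 and 8 were higher in pup 2. Egfl7, the highest of the 10 by TPM, was 1 of the 2 that were not, at -0.07 (-0.14 to -0.005). Beside SoxC stood the 6 sympathetic neuron markers, with 368 TPM in pup 2 against 1144 TPM in pup 1, a median of -1.99 and 0 of 6 higher in pup 2. Stmn2, a tubulin-binding neuronal protein and the highest of these 6, had 113 TPM in pup 2 against 366 TPM in pup 1. Chromaffin markers were split, with 3547 TPM in pup 2 against 1520 TPM in pup 1, a median of 0.30 and 5 of 8 higher in pup 2. The part of these cell types in the SoxF and SoxC ratios was not tested.

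Beside Sox2 and Sox8, the 6 Schwann cell markers summed to 87.7 TPM in pup 2 against 171 TPM in pup 1, and their median log2 ratio was -0.84, with 0 of 6 higher in pup 2. Sox9, the other SoxE gene read here, went the opposite way to these markers, at 0.55. Which genes stand beside which list was chosen by hand. Mesenchyme and capsule markers, beside FoxC, FoxD and Foxs1, summed to 1619 TPM in pup 2 against 1778 TPM in pup 1, with a median of -0.69 and 0 of 8 higher in pup 2. The highest of them, the collagen gene Col3a1, had 591 TPM in pup 2 against 574 TPM in pup 1, at a log2 ratio of -0.36. The lowest ratio of the 8, -1.20, was that of Tcf21, a factor of the capsule and visceral mesenchyme. It had 79.0 TPM in pup 2 against 139 TPM in pup 1. Of the nephron markers, a list with no gene of kidney stroma, the 5 of 8 with enough counts had a median of 3.05, all higher in pup 2. Foxd1 and Foxd2 were lower in pup 2. Liver markers, beside FoxA, had a median of -0.75 and 0 of 8 higher in pup 2, and 7 stomach and oesophagus markers with enough counts, beside FoxA, Foxq1 and Sox2, had a median of -4.83 and 1 of 7 higher in pup 2. What part these tissues had in the ratios of Fox and Sox genes was not tested.

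For the lists of target genes, ratios went both ways. Foxm1 had a ratio of -0.22 (-0.38 to -0.06), and its 10 proliferation genes had a median of -0.07, with 4 higher in pup 2 and 6 in pup 1 and a range of -0.53 to 0.23. The 12 FoxO targets had a median of 0.02, with 6 higher in each pup and a range of -0.71 to 0.79. Among the highest of these targets, Cited2, a transcriptional co-regulator, had a ratio of 0.47 (0.41 to 0.54) and Igfbp1, which binds insulin-like growth factors, one of -0.64 (-0.73 to -0.56). Cartilage markers, beside SoxD and Sox9, had a median of 0.53, with 4 of 5 higher in pup 2, and motile cilia genes, beside Foxj1 at -0.58 (-1.52 to 0.31), had a median of -0.69, with 0 of 4 higher in pup 2. Erythroid markers, beside Sox6, had a median of -0.06, with 3 of 6 higher in pup 2. Skeletal muscle markers had a median of 1.57, with 8 of 8 higher in pup 2.

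**Figure D5:**
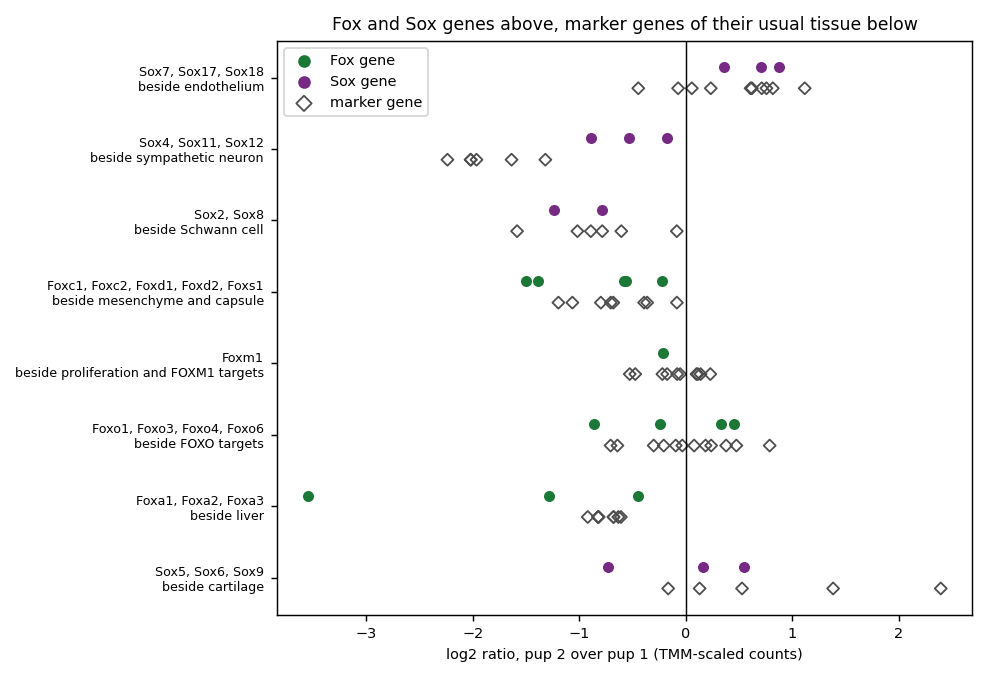
Log2 ratio of pup 2 over pup 1 in TMM-scaled counts for Fox (green) and Sox (purple) genes, each row paired with open diamonds for marker or target genes of the tissue or process they are known from. SoxF genes lie between 0.36 and 0.88 above mostly positive endothelial markers, while SoxC genes lie between -0.89 and -0.18 above sympathetic neuron markers between -2.24 and -1.32.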

How the data were processed

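Libraries of total RNA came from adrenals of 2 newborn pups, 1 library each, made from 10 ng of RNA with spike-ins, per the labels. The authors deposited gene and transcript tables with expected counts, TPM, FPKM and posterior means, per the file headers. The deposited TPM carry the quantifier's interval bounds, which are recorded here as a score, and the deposited transcript tables give each isoform's percent of its gene. The headers of these bounds state no level, and the bounds need not hold the TPM itself. For Foxp2 in pup 2 they ran from 4.93 to 6.59 TPM, above its 4.52 TPM. The build is mm10 and the annotation GENCODE M4, per the deposited text files. The sources used here name no aligner and no quantifier, and strand handling is likewise not given.

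Gene types, symbols and positions were looked up in GENCODE M21 (also mm10) by Ensembl ID, where 42462 of 43346 genes had a symbol. Spike-in rows (0.00250% of counts for pup 2, 0.0138% for pup 1) and numbered rows were left out. Expected counts, not whole for 15.9% of genes in pup 2 and 15.3% in pup 1, were rounded. Ratios used TMM scaling (edgeR 4.0.16, R 4.3.3), 0.5 added to each count and a mean count of at least 10, with exact binomial 95% intervals. Intervals and the floor of 3 counts for a gene at 0 cover counting error only. Alternatives included DESeq2 1.42.0 size factors. Other steps used python 3.11.15, pandas 2.3.3, numpy 2.4.6 and scipy 1.17.1. Upstream windows came from RefSeq (GRCm38.p6), taking the most upstream start of each gene.

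The members, the 17 marker lists (130 genes, all matched) and the tests were chosen with earlier results of these data known. Full values are given for members averaging at least 10 TPM, for the highest member of each subfamily with 1 TPM in both pups, and for the 3 largest ratios each way at a mean count of at least 100. Markers are named from the 4 highest of their list, and Matn1 was named after its value was seen. No test between pups was run. The values of 1 Fox gene with few counts are in the totals but are not reported here.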

Additional observations from a re-analysis of the deposited data

How the results depend on the processing

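No paired analysis was possible because both libraries belong to 1 group. The 9 of 41 members over 2-fold apart (0 higher in pup 2, 9 in pup 1) became 38 under spike-in scaling (38 in pup 2, 0 in pup 1). In TPM they became 7 (2 in pup 2, 5 in pup 1). With no minimum on counts, 19 of 61 members were over 2-fold apart (9 in pup 2, 10 in pup 1). At a mean count of at least 100, 3 of 28 were (0 in pup 2, 3 in pup 1). The members' median log2 ratio of -0.45 became 2.12 under spike-in scaling and 0.021 in TPM, against all-gene medians of 2.57 and 0.39. It became -0.18 with no minimum and -0.22 at a mean count of at least 100. For these changed minimums, neither the share of all genes over 2-fold apart nor their median was computed. Spike-ins held few counts, and the cause of these shifts was not tested. Under DESeq2 size factors, a pseudocount of 5, posterior mean counts, centred TPM or a trend with length and GC removed (the last 2 chosen after seeing the data), 9 members stayed over 2-fold apart. Foxn2 changed sign when the trend was removed or TPM was centred. The SoxC share of 50.4% became 69.7% in counts, which are not scaled for length, and ran from 39.8% to 60.9% with 1 pup left out. The FoxP share of 30.4% became 31.5% in posterior mean TPM and 28.0% in counts, and ran from 29.8% to 31.1% with 1 pup left out. With 1 pup left out, 18 Fox and 11 Sox genes reached 1 TPM, and a ratio could not be formed. Restricting TPM to transcripts of at least 1000 bases, chosen after seeing the data, moved the means of Foxn3 to 17.7, Foxp1 to 19.8 and Sox5 to 1.90 TPM and left 17 Fox and 11 Sox genes at 1 TPM. Depth limits the low genes, since a gene at 0 could still lie near 0.0735 CPM in pup 2 and 0.0723 CPM in pup 1.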

Other observations

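Several members overlap another gene in the annotation, and strand handling is not given in these sources, so reads of such pairs may not be told apart. Foxp3 lies across from Ccdc22, which had 15.4 TPM in pup 2 against 12.0 TPM in pup 1, and Sox15, with no counts, lies across from Mpdu1 at 73.4 TPM in pup 2 against 49.8 TPM in pup 1. Foxo1 overlaps the antisense gene Gm20402, at 5.84 TPM in pup 2 against 4.74 TPM in pup 1, and Sox8 overlaps the antisense gene 2810468N07Rik, at 4.34 TPM in pup 2 against 4.38 TPM in pup 1, which is above its own level. Gm26735, a long non-coding gene across from Sox4, had 56 counts in pup 2 and 0 in pup 1. Among the antisense genes of Sox5, the highest was Sox5os2, at 0.64 TPM in pup 2 against 1.36 TPM in pup 1.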
